A study of Populus ussuriensis with 12 samples.

Results

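In roots of the poplar *Populus ussuriensis*, 101 genes were described by how closely their level followed that of the HSFA4a locus, Potri.011G071700.v3.0, from library to library within a growth medium. They are that locus, the 50 genes with the most positive correlation to it (positive members) and the 50 with the most negative (negative members), out of 20444 genes ranked and 39602 in the files. The ranked genes had a mean of at least 3 CPM, the library-scaled read count after TMM normalization, and did not start below position 2300000 of chromosome 13. Levels were taken as log2(CPM + 0.5), the mean of the 6 control libraries and that of the 6 Zn libraries were subtracted gene by gene, and Pearson's r was computed over the 12 values. The members were thus chosen by these within-medium levels, the contrast of genotypes included, so the differences between genotypes given below are a description without a test. The difference between the media was removed before the ranking and is the one measure tested.

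HSFA4a belongs to class A of the heat shock transcription factors, which bind heat shock elements in promoters as trimers and activate transcription. In Arabidopsis, HSFA4A is known as a regulator of responses to oxidative stress, and in wheat and rice HSFA4a is known for its link to cadmium tolerance. Excess Zn, a metal that plants need in small amounts, restrains root growth and raises reactive oxygen species. The files pair no gene ID with a name, so members are given by ID and position and no function is assigned to them.

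The study set wild-type plants (WT) against plants overexpressing PuHSFA4a (OE), grown in vitro and labelled as kept on control medium or under excess Zn, with 3 root libraries in each of 4 groups. Plants were 21 days old; the protocol gives 1 week of pre-culture and 2 weeks on medium with 1.2 mM zinc sulfate. The protocol is attached to control samples as well; it was taken to describe the Zn groups alone. Neither the promoter of the transgene nor the line behind each OE library is named in the labels, nor do they say if separate plants gave the 3 libraries within each group. P-values thus measure the spread between these libraries, which may be technical. Library totals ran from 15594001 to 21206585 counts, so that 3 counts correspond to 0.141 to 0.192 CPM, a limit that covers counting error only. Root marker genes could not be read for lack of names, so the tissue label was not checked against them.

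The HSFA4a locus lies on the minus strand of chromosome 11, from 6828550 to 6830854. Coordinates are those of the files; their genome build is not stated there. No name stands beside this ID; its identity as HSFA4a is background knowledge of the reference poplar annotation. Where reads of the transgene were counted was not tested. The locus stood at 331, 347 and 340 CPM in OE control and at 267, 239 and 266 CPM in OE Zn. In WT Zn it stood at 33.1, 32.5 and 33.1 CPM. In the libraries labelled WT control 1, 2 and 3 it stood at 129, 165 and 37.1 CPM. The OE libraries all lay above the WT libraries of the same medium, and the libraries labelled WT control 1 and 2 stood between WT Zn and OE. On the log2(CPM + 0.5) scale they lay 0.561 and 0.672 of the way from WT control 3 to the OE control mean. At HSFA4a both libraries thus lay apart from the other WT libraries. The cause, their labels included, was not tested. Each level and r below that involves WT control rests on these libraries. Of the within-medium sum of squares of the locus, 37.6% fell in the control libraries and 24.0% in the library labelled WT control 3 alone. The locus had an r of 0.912 with a plain genotype step (1 in OE, 0 in WT), so its profile was close to that step, apart from the graded WT control libraries. The choice of members was not as close, since the step in place of the locus picked 34 of the 100 members.

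**Figure D1:**
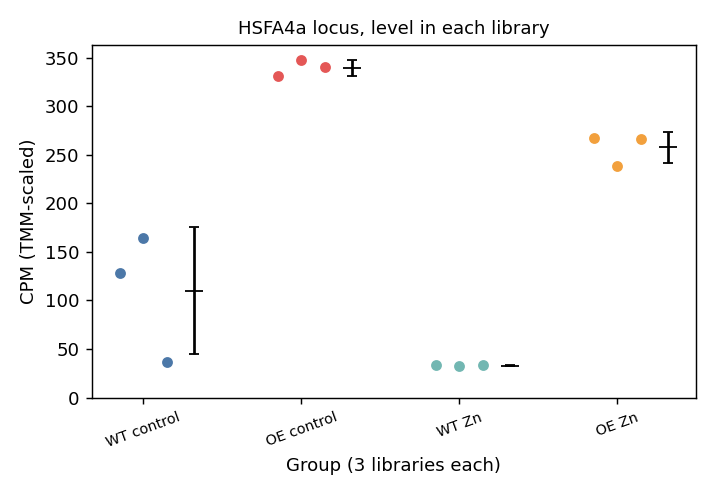
CPM of the HSFA4a locus in each of the 12 libraries, by group; points are libraries in the order 1, 2, 3, and the bar beside them is the group mean with its SD (n = 3). The 3 WT control points are spread from 37.1 to 165 CPM, whereas the WT Zn points lie together near 33 CPM.

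Positive members had an r from 0.804 to 0.946 with a median of 0.846, and negative members from -0.815 to -0.947 with a median of -0.848. The median r of all ranked genes was -0.020. The boundary was narrow: the last positive member, Potri.005G021200.v3.0, had an r of 0.8043 and the first gene left out, Potri.008G159900.v3.0, 0.8030. The last negative member, Potri.004G149100.v3.0, had -0.8145 and the first gene left out, Potri.010G070500.v3.0, -0.8143. Within the 6 control libraries the median r was 0.871 for positive and -0.854 for negative members, and within the 6 Zn libraries 0.896 and -0.881. In the Zn libraries the locus takes 2 separate levels, so r there mostly sets WT against OE. An absolute r of at least 0.8 in both media was seen for 35 positive and 27 negative members. It was seen for 181 of the 20444 ranked genes, the members and the locus included and whatever the sign in each medium. The genes of a set also ran together among themselves, with a median pairwise r of 0.752 among positive and 0.762 among negative members, which the choice by 1 profile brings with it.

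**Figure D2:**
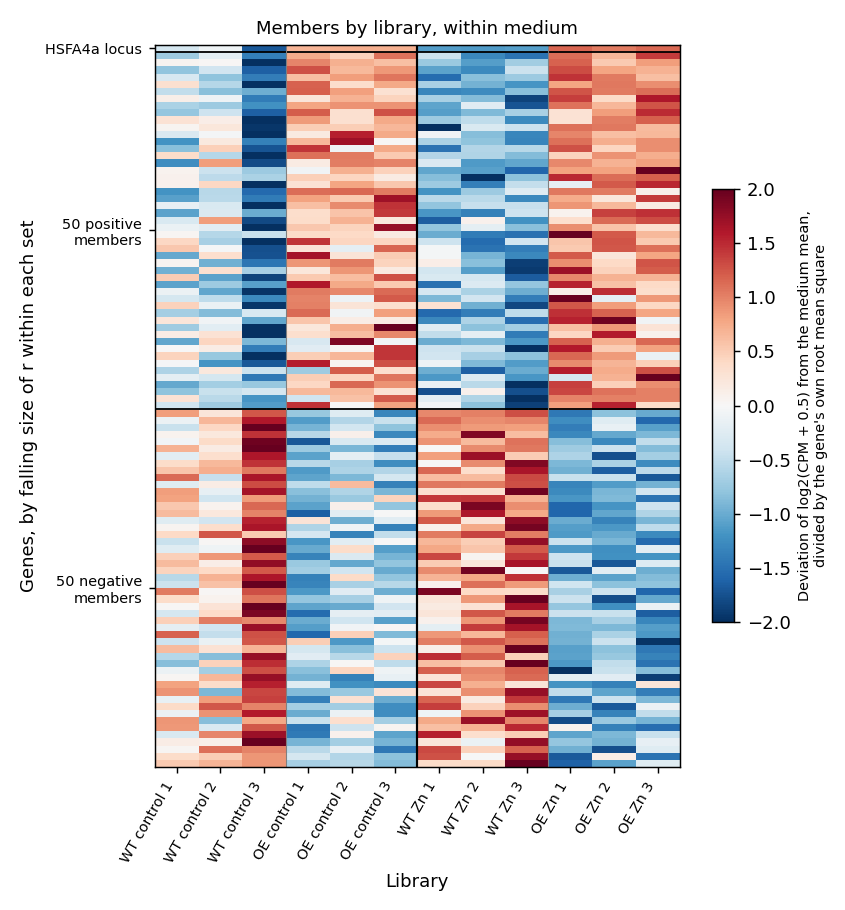
Deviation of each member from its mean in the medium, divided by the gene's own root mean square, with libraries in columns and the HSFA4a locus on top. On Zn the OE columns lie above the WT columns in 49 positive members and below them in 49 negative ones; on control this holds for 35 and 27, and the library labelled WT control 3 is the lowest WT control in 42 positive members and the highest in 45 negative ones.

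The differences between genotypes were small for most members. The median ratio of OE to WT in the positive members was 1.18 on control and 1.32 on Zn, and that of WT to OE in the negative members was 1.15 and 1.21. The HSFA4a locus itself stood 3.08 and 7.82 times higher in OE. On the log2(CPM + 0.5) scale, 8 positive and 4 negative members differed at least 1.5-fold in both media in their direction, against 49 of all ranked genes in either direction (0.24%). On Zn the 3 OE libraries all lay above the 3 WT libraries in 49 positive members (5.95% of ranked genes do so) and all below them in 49 negative members (7.03%). On control the counts were 35 positive (7.33%) and 27 negative (7.74%), and in both media 34 (0.631%) and 26 (0.724%). The rule used these values, so nothing is read from the counts. In these whole roots, a change in the share of a cell type and a change of RNA per cell cannot be told apart.

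Among positive members the difference on Zn was widest at Potri.T051700.v3.0 (scaffold 48, 130858 to 151503, minus strand), the sixth in r at 0.929. It stood at 0.720, 0.253 and 0.116 CPM in WT control, 12.9, 7.29 and 3.28 in OE control, 0.142, 0.183 and 0.752 in WT Zn, and 23.1, 17.0 and 18.9 in OE Zn. In the WT libraries these levels rest on 2 to 15 counts each, and in OE on 52 to 424. The OE control libraries spread from 3.28 to 12.9 CPM at this gene, whereas the HSFA4a locus was nearly level in them. Potri.010G037700.v3.0 (chromosome 10, 6448007 to 6451912) likewise came near zero in part of the WT libraries. It had 0, 31 and 0 counts in WT Zn and 118, 101 and 93 in OE Zn, and on control 26, 37 and 36 in WT and 100, 101 and 64 in OE. WT Zn 2, with 1.89 CPM, stood at the level of the WT control libraries (1.25 to 2.09 CPM), and the other WT Zn libraries had 0 counts, which allows up to 0.141 CPM in WT Zn 1 and 0.144 CPM in WT Zn 3. Potri.010G035500.v3.0 (chromosome 10, 6179489 to 6180663; r 0.935) stood at 11.5, 9.02 and 6.79 CPM in WT control against 17.9, 20.1 and 22.4 in OE control, and at 5.86, 8.29 and 8.77 in WT Zn against 25.1, 20.7 and 16.8 in OE Zn. OE thus exceeded WT 2.21-fold on control and 2.73-fold on Zn with no overlap in either medium.

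The 3 genes closest to the locus in r differed by no more than 1.31-fold between genotypes. Potri.001G324800.v3.0 (chromosome 1, 32881959 to 32889726), the first at 0.946, stood at 26.4, 27.5 and 25.0 CPM in WT control and 29.6, 28.9 and 30.4 in OE control. On Zn it stood at 24.8, 23.2 and 22.8 CPM in WT and 28.1, 27.1 and 28.7 in OE, a ratio of 1.18 with no overlap. Potri.010G209000.v3.0 (chromosome 10, 19845236 to 19850754), the second at 0.943, was lowest in the library labelled WT control 3, as was HSFA4a. It stood at 209.6, 209.1 and 169.9 CPM there, at 227, 222 and 220 in OE control, at 204, 198 and 205 in WT Zn and at 241, 228 and 234 in OE Zn. Potri.015G086400.v3.0 (chromosome 15, 10964066 to 10968283; r 0.939) had the same ratio of 1.31 in both media, with 16.0 CPM ± 1.47 and 20.95 CPM ± 0.98 on control and 16.2 CPM ± 1.06 and 21.3 CPM ± 1.04 on Zn (WT and OE, SD, n = 3). Potri.006G052900.v3.0 (chromosome 6, 3811387 to 3815648; r 0.931) stood at 6.11 CPM ± 1.58 and 8.42 CPM ± 0.77 on control and 7.91 CPM ± 0.47 and 11.8 CPM ± 0.35 on Zn. The ratios of the other members down to the twelfth place lay between 1.12 and 1.95 on control and between 1.29 and 2.02 on Zn. They are Potri.019G061400.v3.0, Potri.001G029700.v3.0, Potri.009G109400.v3.0, Potri.011G099400.v3.0, Potri.001G011000.v3.0 and Potri.T034600.v3.0.

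The strongest negative member, Potri.013G074500.v3.0 (chromosome 13, 6385810 to 6388841, minus strand), lies outside the excluded start of that chromosome. It had an r of -0.947 and stood at 32.3, 26.5 and 37.1 CPM in WT control against 18.9, 22.5 and 15.7 in OE control, and at 34.4, 34.9 and 38.2 in WT Zn against 15.4, 18.9 and 17.8 in OE Zn. WT exceeded OE 1.68-fold on control and 2.06-fold on Zn without overlap. Among the WT control libraries it was highest in number 3, where the HSFA4a locus was lowest, and lowest in number 2, where that locus was highest. Potri.004G122100.v3.0 (chromosome 4, 11557079 to 11562197; r -0.929) differed much less, with 42.5, 45.0 and 48.1 CPM in WT control against 39.6, 41.1 and 41.5 in OE control. Its Zn libraries stood at 41.4, 40.8 and 41.0 CPM in WT and 34.9, 37.5 and 34.1 in OE, again without overlap. Potri.018G017300.v3.0 and Potri.008G215700.v3.0, next in r, had WT to OE ratios of 1.16 and 1.05 on control and 1.196 and 1.102 on Zn.

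The negative members in places 8 and 9 by r were Potri.014G106500.v3.0 (chromosome 14, 8386362 to 8389701) and Potri.013G100500.v3.0 (chromosome 13, 11147296 to 11150772). The former stood at 11.7, 12.7 and 16.1 CPM in WT control, 8.89, 8.60 and 7.24 in OE control, 13.9, 18.3 and 23.9 in WT Zn and 10.7, 11.5 and 9.59 in OE Zn. The latter stood at 7.53, 7.86 and 8.47 CPM in WT control, 5.02, 5.70 and 5.73 in OE control, 5.62, 4.63 and 6.32 in WT Zn and 3.32, 2.78 and 3.71 in OE Zn. The WT and OE libraries of both genes were separate in each medium. The widest ratio of a negative member belonged to Potri.003G146800.v3.0 (chromosome 3, 16232280 to 16235019), at 1.94 on control and 2.35 on Zn. Its levels were 6.24, 6.84 and 13.5 CPM in WT control against 4.14, 4.22 and 5.35 in OE control, and 0.803, 0.853 and 1.65 in WT Zn against 0.436, 0.303 and 0.670 in OE Zn. The OE Zn levels rest on few counts, since 3 counts make 0.154 to 0.165 CPM in those libraries. On the log2(CPM + 0.5) scale its OE minus WT difference on Zn was -0.70, smaller in size than the -1.03 of Potri.013G074500.v3.0.

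Levels of the members per length covered a wide range. In the authors' FPKM values, which divide by gene length, the mean over the 12 libraries ran from 1.21 at Potri.T013300.v3.0 to 1505 at Potri.010G236500.v3.0, and the HSFA4a locus stood at 94.5. The median was 10.9 FPKM for positive and 15.2 for negative members, against 13.1 for all ranked genes. Negative members supplied the 3 most abundant members, Potri.010G236500.v3.0, Potri.008G051900.v3.0 (307 FPKM) and Potri.004G149100.v3.0 (229 FPKM). Potri.010G236500.v3.0 (chromosome 10, 21618254 to 21620267) stood at 782, 909 and 988 CPM in WT control and 647, 839 and 686 in OE control. It stood at 1544, 1324 and 1601 CPM in WT Zn and 1034, 1206 and 1124 in OE Zn, so the genotypes overlapped on control and not on Zn. Together the 50 negative members took 0.261% ± 0.021 of the counts in WT control and 0.222% ± 0.013 in OE control, and 0.319% ± 0.019 and 0.258% ± 0.012 on Zn (SD, n = 3). A large part of these shares lay in Potri.010G236500.v3.0 alone, at means of 893, 724, 1490 and 1121 CPM in the same order. The higher share on Zn thus does not describe the negative members as a set. In the test below, 20 of them were called lower on Zn and 8 higher. The 50 positive members took 0.157% ± 0.013 and 0.194% ± 0.006 on control, and 0.162% ± 0.009 and 0.215% ± 0.009 on Zn.

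The library labelled WT control 3 was the lowest of the WT control libraries in 42 of 50 positive members and the highest in 45 of 50 negative members, against 35.8% and 38.6% of ranked genes. Placed between WT control 3 and the OE control mean, the library labelled WT control 1 lay at a median of 0.620 of the way in positive and 0.519 in negative members, and WT control 2 at 0.518 and 0.587. The rule again fixes much of this. With the mean of each of the 4 groups removed, r kept its sign in 48 of 50 positive and 48 of 50 negative members, with medians of 0.525 and -0.525. Among ranked genes 10048 of 20444 had such an r above 0, with a median of -0.010. Of what is left of the locus, 99.2% then comes from the WT control libraries. The rule used these values as well, so nothing is read from the signs. Potri.005G181600.v3.0 shows the grading, with 45.3, 43.7 and 24.7 CPM in WT control beside 55.1, 60.2 and 68.5 in OE control. Potri.007G020100.v3.0 does not, with 12.7, 15.2 and 13 CPM in WT control beside 10.8, 8.60 and 10.4 in OE control.

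The gap between genotypes was more often wider on Zn than on control. This was so for 35 positive and 43 negative members, against 48.7% of ranked genes, and the rule used these values too. The following 4 positive members, chosen after their values were seen, had a wider gap on Zn than on control. Potri.009G133200.v3.0 stood at 9.13 CPM ± 1.12 in WT control and 11.3 CPM ± 0.56 in OE control, against 5.09 CPM ± 1.13 and 10.99 CPM ± 0.69 on Zn (SD, n = 3). Potri.001G235600.v3.0 stood at 3.82 CPM ± 0.43 and 4.76 CPM ± 0.19 on control, against 2.16 CPM ± 0.22 and 5.48 CPM ± 1.28 on Zn. Potri.007G021400.v3.0 overlapped on control, with 37.0, 47.6 and 39.1 CPM in WT and 36.0, 64.7 and 49.4 in OE, and not on Zn, with 27.3, 22.2 and 27.2 in WT and 59.6, 46.3 and 54.8 in OE. Potri.001G140800.v3.0 was higher on Zn in both genotypes, at 77.6, 87.1 and 74.7 CPM in WT and 125, 134 and 95.5 in OE. On control it stood at 41.5 CPM ± 4.60 in WT and 45.6 CPM ± 1.82 in OE. Its locus spans 103223 bases for a length of 2640 and overlaps 8 other genes. Whether reads of those were counted here was not tested.

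**Figure D3:**
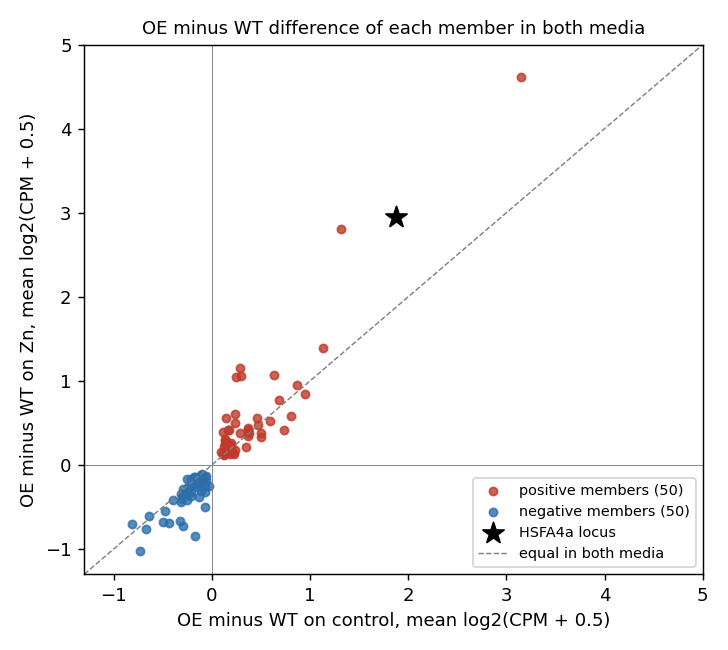
OE minus WT difference of each member on control (x axis) and on Zn (y axis), both as differences of mean log2(CPM + 0.5); the dashed line marks equal differences. Most members lie within 1 unit of 0 on both axes, and Potri.T051700.v3.0, at 3.15 and 4.61, lies beyond the HSFA4a locus, at 1.87 and 2.95.

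Whether the members also responded to excess Zn was tested on the difference that the rule had removed. This is the mean of the Zn groups against the mean of the control groups, averaged over genotypes. The spread between libraries within groups, which this test also uses, was not removed, so the shares of calls below are not independent of the choice. Members were called by the quasi-likelihood test of edgeR at an adjusted p under 0.05. By that test 15 of the 50 positive members rose on Zn, 8 fell and 27 passed in neither direction. Of the 50 negative members 8 rose, 20 fell and 22 passed in neither direction. Not passing does not show that a gene stayed level. Of all 25871 genes tested 40% passed, and of the ranked genes 42.9%, with 21.1% higher and 21.8% lower. The positive members were thus called in 46% (30% higher, 16% lower) and the negative members in 56% (16% higher, 40% lower). The median log2 fold change was 0.02 in positive and -0.10 in negative members, against -0.01 in all ranked genes, and 26 of 50 positive and 17 of 50 negative members lay above 0, against 49.2%. The median biological coefficient of variation, the spread between replicates beyond counting error, was 9.71% in positive, 8.62% in negative members and 10.6% in ranked genes; its part in the counts of calls was not tested. The count of 8 positive members that fell was 5 without the libraries labelled WT control 1 or 2, without OE control 2 or 3, or without OE Zn 2, each left out alone. Without WT control 1 and 2 together it was 4, and 5 rather than 8 negative members rose. All 51 called members had the same sign of the Zn difference in WT and in OE. A call on the average over genotypes favours this, and the share over all called genes was not counted, so nothing is read from it.

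The largest rises on Zn among the members were those of 2 negative members. Potri.010G102400.v3.0 (chromosome 10, 12358833 to 12360942) stood at 3.02, 2.84 and 5.34 CPM in WT control and 2.26, 3.12 and 3.21 in OE control, against 10.3, 16.0 and 17.2 in WT Zn and 8.55, 8.497 and 8.04 in OE Zn. Every Zn library lay above every control library (log2 fold change 1.76, SE 0.18, edgeR adjusted p = 1.96e-05). Potri.003G188000.v3.0 (chromosome 3, 19341902 to 19364828) stood at 4.17, 3.60 and 5.80 CPM in WT control and 2.76, 2.52 and 2.71 in OE control, against 10.7, 9.94 and 14.6 in WT Zn and 8.23, 5.77 and 8.66 in OE Zn. Its log2 fold change was 1.44 (SE 0.16, edgeR adjusted p = 3.03e-05), and the highest control library, at 5.80 CPM, lay just above the lowest Zn library, at 5.77 CPM. The largest fall among the members was that of Potri.003G146800.v3.0, described above, whose Zn libraries all lay below its control libraries (log2 fold change -3.12, SE 0.28, edgeR adjusted p = 7.84e-06). Among members that passed the test, the HSFA4a locus aside, the next was that of the positive member Potri.006G212800.v3.0 (chromosome 6, 22659114 to 22660766). It went from 32.6, 33.3 and 27.9 CPM in WT and 31.8, 32.8 and 38.5 in OE on control to 20.04, 19.9 and 16.6 in WT and 25.2, 22.3 and 23.0 in OE on Zn (log2 fold change -0.64, SE 0.08, edgeR adjusted p = 5.05e-05).

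The HSFA4a locus itself was lower on Zn when averaged over genotypes (log2 fold change -1.07, SE 0.27, edgeR adjusted p = 0.00989). Leaving out WT control 1 and WT control 2, in which HSFA4a stood high, gave -0.29 (edgeR adjusted p = 0.00344). Potri.001G324800.v3.0, Potri.010G209000.v3.0 and Potri.015G086400.v3.0, the 3 members nearest to it in r, had log2 fold changes of -0.12, 0.06 and 0.02, none of which passed. Potri.013G074500.v3.0, the strongest negative member, had 0.01 (SE 0.10, edgeR adjusted p = 0.922).

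**Figure D4:**
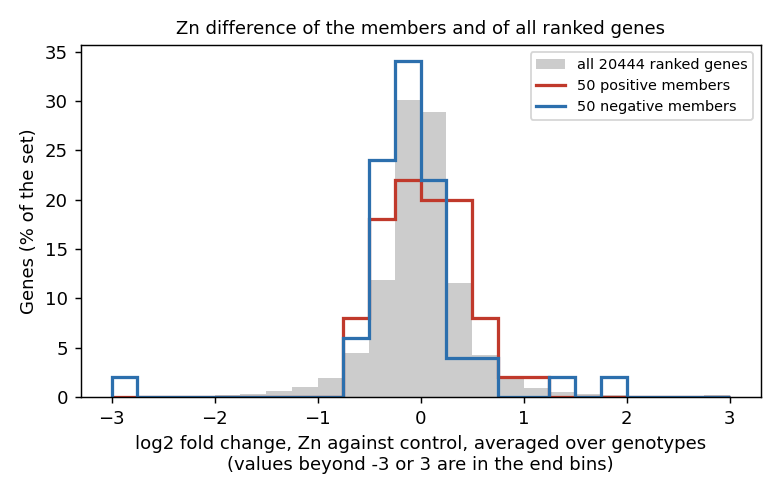
Distribution of the log2 fold change of Zn against control, averaged over genotypes, as a percentage of each set: all ranked genes (grey), the positive members (red) and the negative members (blue). The medians are 0.02 for positive members, -0.10 for negative members and -0.01 for ranked genes.

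The members were spread over the genome. They lay on each of the 19 chromosomes and on 4 scaffold loci, with 16 of 100 on chromosome 1, which holds 11.8% of ranked genes, 9 on chromosome 10 (7.24%) and 8 each on chromosomes 2 and 4 (7.42% and 5.46%). Only 2 pairs lay within 100 kb of each other. Potri.004G004100.v3.0 (chromosome 4, 271010 to 272243, minus strand) and Potri.004G004200.v3.0 (273177 to 277946, plus strand) are neighbours with 933 bases between them and went in opposite directions. The former, a positive member, stood at 8.91 CPM ± 0.28 in WT control, 9.76 CPM ± 0.44 in OE control, 8.80 CPM ± 0.28 in WT Zn and 9.87 CPM ± 0.68 in OE Zn (SD, n = 3). The latter, a negative member, stood at 59.0 CPM ± 1.72, 54.9 CPM ± 1.77, 55.9 CPM ± 1.27 and 50.6 CPM ± 1.91 in the same order. Potri.002G031600.v3.0 (chromosome 2, 2018969 to 2022817, minus strand) and Potri.002G031800.v3.0 (2028273 to 2030938, plus strand) are both negative members, 5455 bases apart with 1 gene between them. They stood at 30.9, 30.9 and 39.0 CPM and at 29.6, 35.0 and 47.0 CPM in WT Zn, both highest in WT Zn 3, and at 24.6, 25.9 and 27.9 and at 22.9, 24.2 and 21.3 CPM in OE Zn.

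Some member loci share ground with other genes. Of the positive members 15 (30%) and of the negative members 8 (16%) overlap another gene of the files, against 13.2% of ranked genes, and 9 and 2 of them do so on the same strand. Where counting does not separate such genes, their reads cannot be told apart, and the strand setting used by the authors is not stated. The extreme cases are Potri.018G119700.v3.0, whose locus spans 288364 bases for a length of 3889 and overlaps 30 other genes, and Potri.001G011000.v3.0, which spans 199436 bases for a length of 1580 and overlaps 16 other genes. At Potri.001G011000.v3.0 the libraries stood at 50.7, 54.3 and 22.5 CPM in WT control, 60.2, 60.4 and 64.7 in OE control, 26.3, 53.3 and 50.8 in WT Zn and 93.6, 92.2 and 77.99 in OE Zn. Here WT control 3 and WT Zn 1 stood apart as low, and the genotypes did not overlap in either medium. Inside the locus of Potri.T051700.v3.0, and read from the same strand, the files place Potri.T051900.v3.0, at a mean of 0.703 CPM. The median length was 2042 bases in positive and 1815 in negative members, against 1954 in ranked genes.

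Membership depended on single libraries. When the rule was applied again with 1 library left out, it picked 36 of the 100 members without the library labelled WT control 3 (25 positive, 11 negative). It picked 53 without OE Zn 3, 56 without WT Zn 1, 57 without OE Zn 2, 58 without WT Zn 2, 61 without WT Zn 3 and 65 without OE Zn 1. Leaving out any of the other 5 control libraries kept 72 to 79. In each of the 12 cases 16 positive and 9 negative members were picked, all of the first 12 positive ones among them. Without WT control 3, 6 of the first 12 negative members were still picked, and in the other 11 cases all 12 were. All 100 members kept the sign of r in each case. Some members described singly above were picked in few of the 12 cases. Potri.007G021400.v3.0, Potri.010G037700.v3.0 and Potri.004G004200.v3.0 were picked in 2, Potri.006G212800.v3.0 in 3, and Potri.004G004100.v3.0 and Potri.001G140800.v3.0 in 4. Others were firmer, such as Potri.010G102400.v3.0 in 6, Potri.003G146800.v3.0 in 7, Potri.003G188000.v3.0 in 11 and Potri.009G133200.v3.0 in 12. The control libraries alone picked 6 of the 100 members and the Zn libraries alone 21, and a plain genotype step in place of the HSFA4a level, a choice made after seeing the data, picked 34.

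**Figure D5:**
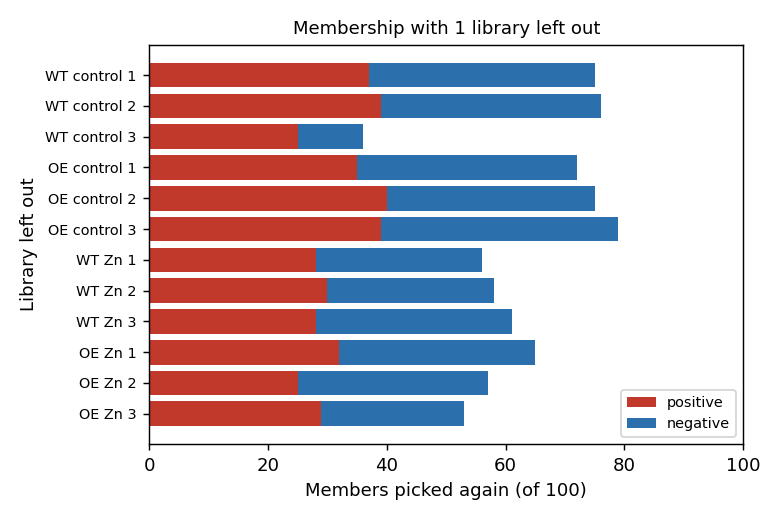
Number of the 100 members that the rule picked again with 1 library left out, split into positive (red) and negative (blue) members. The bar for the library labelled WT control 3 is the shortest, at 36, and the 6 Zn libraries follow at 53 to 65.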

How the data were processed

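The authors deposited 1 file per library with a count, an FPKM value and a normalized value per gene. Per the submitters' processing notes, the tools were TopHat2 2.1.1 and HTSeq 0.6.0; neither build nor strand setting is stated. The deposited counts are whole numbers but are taken here as estimated counts, since the normalized column implies slightly lower ones for some genes. The authors' FPKM values served for levels between genes and as an alternative, and the authors' normalized column, a signal value per gene, as an alternative only.

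Libraries were grouped by title; numbers 1 to 3 follow the order of deposit and pair nothing. Tests used R 4.3.3 and edgeR 4.0.16: filterByExpr, TMM, 4 group means over 12 libraries, its robust quasi-likelihood test, with p-values adjusted (Benjamini-Hochberg) over 25871 genes. An SE is |log2 fold change| / √F. The test and the rule were checked on simulated counts. The test called 44 of 67 genes given a 1.5-fold Zn change, 52 of 67 given a 2-fold and 63 of 66 given a 4-fold change. It called 11 of 25671 given none. The rule recovered 50 of 50 planted positive and 49 of 50 planted negative genes. Their planted differences were larger than those of most members, so this check does not cover differences as small as theirs. The planted genes were also drawn only from genes at higher levels, and all genes were given the same spread. Members at low levels or with a wider spread are thus not covered either. DESeq2 1.42.0 and limma 3.58.1 were alternatives.

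The members, gene lists and tests were chosen with earlier results of these data known. The naming rule takes the HSFA4a locus, the 12 members with the largest r on each side, the largest called Zn changes, members within 100 kb of each other and the genes at the rank limit; Zn changes are limited to 2 in each direction because the IDs carry no names. Members named for other reasons were chosen after their values were seen. Lists defined by words in gene descriptions, such as heat shock proteins or glutathione S-transferases, could not be filled. Library totals of 15594001 to 21206585 counts set the precision.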

Additional observations from a re-analysis of the deposited data

How the results depend on the processing

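Of the 100 members, the rule picked 36 to 79 again when each library was left out in turn. It picked 56 with Spearman's correlation, 59 without WT control 1 and 2, 6 from the control libraries alone, 21 from the Zn libraries alone, and, in alternatives added after seeing the data, 30 without WT control 3 and WT Zn 3 and 34 with a genotype step. Leaving out libraries or a medium leaves fewer values for r; the cause of the other shifts was not tested. Between 70 and 100 were kept under the 13 other settings: scaling, pseudocount, level filter, authors' columns, chromosome 13 kept, medians, TMM over all genes and implied counts.

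The Zn calls, with each library left out, ran from 14 to 15 for positive members higher, 5 to 11 for positive lower, 6 to 9 for negative higher and 17 to 21 for negative lower. Without WT control 1 and 2 together, 4 positive members were lower and 5 negative members higher; WT control then rests on 1 library, assumed to vary like the other groups. With DESeq2, limma-voom, other scalings and filters, the additive model and without WT control 3 and WT Zn 3, the 4 counts stayed within 1.5 times of their values. Of 35 named genes none changed sign in a called Zn difference; over 21 settings, 28 calls were lost and 13 gained. No paired analysis was possible because the labels number no replicates across groups. Depth limits Potri.T051700.v3.0 and Potri.010G037700.v3.0, whose WT levels rest on 0 to 37 counts. It also limits Potri.003G146800.v3.0 on Zn, where its libraries stood at 0.303 to 1.65 CPM.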
